A study of Mus musculus with 6 samples.

Results

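Neuropeptide precursor genes encode the prohormones from which neurons cut their peptide messengers. The 10 described here are Npy, Sst, Cck, Tac1, Penk, Pdyn, Crh, Vip, Adcyap1 and Nts. They were chosen by name, among 21553 genes with a value, and all 10 were measured and passed the filter on low counts. RNA was sequenced from primary neurons of the hippocampus of C57bl/6 mouse embryos (E16.5) after 10 days in culture. The untreated group received no KCl, and the other groups received 55 mM KCl for 0.5 h or for 3 h. High potassium outside the cell depolarises neurons, and is widely used in culture as a stand-in for electrical activity. Each group has 2 libraries, called biological duplicates without a statement of what was duplicated, and a p-value here reflects only how far these libraries spread, which may be technical. No genotype or cell sort separates the groups, and a dissociated embryonic culture holds a mixture of neurons and glia.

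A neuropeptide precursor enters the secretory pathway, is cleaved at paired basic residues by prohormone convertases, trimmed by carboxypeptidase E and often amidated, and is stored in dense core granules. Release needs stronger or longer activity than release of classical transmitters, and the peptides act on G protein-coupled receptors. In the hippocampus Sst, Npy, Cck and Vip are best known from subtypes of GABAergic interneuron, Pdyn and Penk from granule cells, and Nts from the subiculum. Several of these genes, Sst and Vip above all, are textbook targets of CREB, a transcription factor that calcium and cAMP signals switch on through the cAMP response element.

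The cAMP response element (TGACGTCA) and its 5-letter core (TGACG) are shown for the members whose level passed a test below, because these letters lie just upstream of their start sites. The sequences are RefSeq's (build GRCm38.p6), 5′ to 3′ on the strand of the gene, with the element or core in capitals. The windows for Adcyap1 (chr17:93198897-93199016, + strand) and Vip (chr10:5639098-5639217, + strand) are the 120 bases before the start. An exon of the GENCODE annotation overlaps the 120 bases before the Sst start of RefSeq, so only 30 bases around its site are given (chr16:23890874-23890903, − strand).
Adcyap1: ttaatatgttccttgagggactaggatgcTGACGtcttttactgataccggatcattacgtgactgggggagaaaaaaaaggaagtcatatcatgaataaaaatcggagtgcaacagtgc
Vip: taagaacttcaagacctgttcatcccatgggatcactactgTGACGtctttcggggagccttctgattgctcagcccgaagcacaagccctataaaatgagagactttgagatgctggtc
Sst: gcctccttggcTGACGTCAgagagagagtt

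The site began 91 bases before the start in Adcyap1, 79 in Vip and 48 in Sst. Adcyap1 and Vip share 7 of the 8 letters of the full element at that place, and Sst shares all 8. Promoters were found for 8 of the 10 members (not for Penk and Crh), and the 250 bases before each start were searched on both strands. The full element was found in Sst alone, against 1.55% of all 32851 promoters. The core, which is also part of the full element, was found in Tac1, Cck, Vip, Nts, Sst and Adcyap1, against 17.8% of all promoters. The AP-1 letters TGANTCA were found in Nts, against 6.75% of all promoters. A match describes these letters and is no evidence of binding.

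Library totals ran from 98882007 to 141865913 counts. Levels are cRPKM, the authors' read count scaled to gene length and library size (what the c stands for is not given in the sources used here), and are comparable between genes. Tests used edgeR's quasi-likelihood test on the counts over 15895 genes, and "called" means a Benjamini-Hochberg adjusted p under 0.05. Libraries with the same replicate number deviated together from their groups, so each comparison was fitted without and with replicate number as a block. This pairing comes from the data and is not stated by the labels. Of the markers of other cells, the 10 microglial genes summed to between 1.41 and 1.61 cRPKM and the 7 endothelial genes to between 1.0 and 1.5, while the 10 astrocyte genes summed to between 1070 and 2230.

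The members spanned more than 3 orders of magnitude in untreated neurons. Somatostatin (Sst) was the most abundant at 272 ± 73.0 cRPKM (SD, n = 2), followed by cholecystokinin (Cck) at 96.3 ± 67.7 and neurotensin (Nts) at 33.0 ± 12.6. The tachykinin 1 gene (Tac1, substance P) stood at 8.02 ± 3.58, neuropeptide Y (Npy) at 5.99 ± 3.75 and Adcyap1, which encodes the peptide PACAP, at 5.62 ± 2.18. Prodynorphin (Pdyn) stood at 1.59 ± 0.757, proenkephalin (Penk) at 1.32 ± 0.665, vasoactive intestinal peptide (Vip) at 0.840 ± 1.16 and corticotropin-releasing hormone (Crh) at 0.175 ± 0.191. Between neighbours in this order, both untreated libraries of one gene lay above both of the next for Sst over Cck, Cck over Nts, Nts over Tac1 and Adcyap1 over Pdyn. The other neighbours overlapped, namely Tac1 with Npy, Npy with Adcyap1, Pdyn with Penk, Penk with Vip and Vip with Crh. Sst alone made up 56.7% to 67.9% of the summed cRPKM of the 10 genes in each library, Cck 14.2% to 27.5% and Nts 4.57% to 13.1%.

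**Figure D1:**
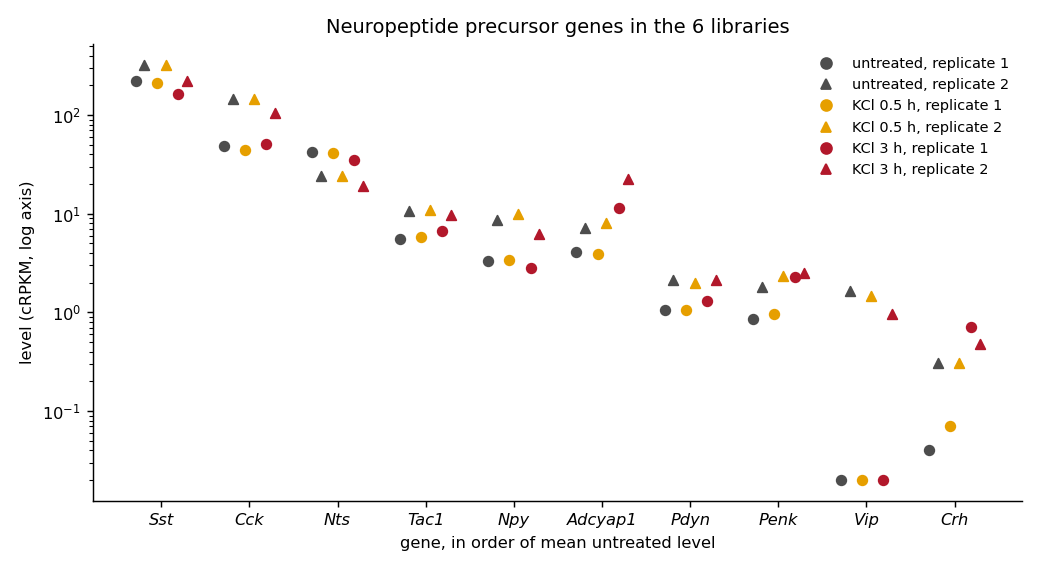
Level of each gene (cRPKM, log axis) in each of the 6 libraries, coloured by group, with circles for replicate 1 and triangles for replicate 2; genes run from the highest to the lowest mean untreated level. Adcyap1, Penk and Crh are the genes whose 3 h libraries both lie above both untreated libraries, and Vip is near 0.02 in every replicate 1 library.

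After 0.5 h of KCl no member had moved beyond the spread between libraries. In edgeR's test 0 of 10 were called, against 0.0377% of all genes, and 0 of 10 with the replicate block, against 0.0818%. No member had an unadjusted p under 0.05, and DESeq2 and limma-voom also called 0. Adcyap1 read 4.07 and 7.16 cRPKM in the untreated libraries and 3.90 and 8.07 at 0.5 h, a log2 difference of 0.06 ± 0.47 (SE). Sst read 220 and 324 in untreated libraries and 212 and 322 at 0.5 h. Within each replicate number the 0.5 h library was within 1.27 times of the untreated one for 9 members, and the groups overlapped for all 10. The exception was Crh, whose ratio was 1.55 in number 1, from 8 and 12 counts, and 0.954 in number 2. In the same libraries the immediate early gene Fos, a transcription factor gene, had risen by 4.81 ± 0.19 on the log2 scale (edgeR, adjusted p = 0.00631). Fosb, Npas4 and Junb read higher by 5.79 ± 0.47, 4.48 ± 0.37 and 3.45 ± 0.38. Without the block edgeR called none of them (adjusted p = 0.0522, 0.0541 and 0.138). Large rises could thus go uncalled at 0.5 h.

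After 3 h the clearest difference was in Adcyap1. PACAP raises cAMP in target neurons through its receptor PAC1. Adcyap1 read 4.07 and 7.16 cRPKM in untreated libraries 1 and 2, 3.90 and 8.07 at 0.5 h, and 11.33 and 22.66 at 3 h. Both 3 h libraries lay above all 4 others. Within replicate numbers the 3 h level was 2.96 and 3.22 times the untreated one. Without the block the log2 difference was 1.64 ± 0.48 (SE) and was not called by edgeR (adjusted p = 0.0718), while DESeq2 called it (adjusted p = 0.00127). With the replicate block Adcyap1 rose by 1.63 ± 0.087 on the log2 scale (edgeR, adjusted p = 0.00195). On all 6 libraries limma-voom with the block also called it (adjusted p = 0.00201). Its log2 values ran from 1.54 to 1.71 over the 10 fits that kept the block. Of these, 6 left out 1 library and had 1 residual degree of freedom, so their p-values are of little weight. Without the block, leaving out 1 library gave log2 values from 1.13 to 2.09.

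Across the 10 genes, edgeR called 0 without the block at 3 h, where 15.6% of all genes were called. At an unadjusted p under 0.05 there was 1 (Adcyap1), DESeq2 called 1 (Adcyap1) and limma-voom 0. With the block 3 of 10 were called (Adcyap1 higher, Sst and Vip lower), where 37.2% of all genes were called. The share of members is therefore close to that of all genes. The median log2 difference over the 10 was −0.07 without the block, against −0.02 over all genes tested.

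Sst encodes somatostatin, an inhibitory peptide of dendrite-targeting interneurons. It read 220 and 324 cRPKM in untreated libraries, 212 and 322 at 0.5 h, and 162 and 222 at 3 h. The untreated and 3 h groups overlapped narrowly, since the higher 3 h library was just above the lower untreated one. Within replicate numbers the 3 h level was 0.779 and 0.696 times the untreated one. With the block Sst fell by 0.44 ± 0.077 on the log2 scale (edgeR, adjusted p = 0.0137). Without the block the value was −0.45 ± 0.27 (adjusted p = 0.281). The call with the block was lost without untreated replicate 2 (adjusted p = 0.0987).

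Sst cells are interneurons, and most of the 19 interneuron markers listed without the members differed in the same direction. With the block 17 had a negative log2 difference at 3 h and 2 a positive one. Those 2 were Pvalb and Sox6, named after the values were seen, and both were called higher with the block. The summed level of the 19 was 419 and 615 cRPKM untreated, 412 and 577 at 0.5 h, and 341 and 414 at 3 h. At 3 h 0 of 19 were called higher and 3 lower without the block (Kit, Nxph1 and Erbb4), where 15.6% of all genes were called, and 2 higher and 9 lower with it, where 37.2% were. The median log2 difference was −0.55. Kit is a receptor tyrosine kinase gene, Nxph1 encodes a neurexin ligand and Erbb4 the neuregulin receptor. Their log2 values were −0.61 ± 0.10, −0.69 ± 0.13 and −0.95 ± 0.19, and each was called in 2 of the 6 fits that left out 1 library. None of the 19 markers was at 0 in all libraries. Lower values were not limited to interneuron markers. The 12 excitatory neuron markers summed to 891 and 1000 cRPKM untreated and 774 and 610 at 3 h, with a median log2 difference of −0.33 (0 called higher and 1 lower without the block, 0 and 2 with it). The 10 astrocyte markers summed to 1070 and 1570 untreated and 1110 and 2230 at 3 h, with a median of 0.38 (0 called without the block, 4 higher and 1 lower with it). The part of these cells in the Sst result was not tested. In bulk samples fewer cells of a type and less RNA per cell cannot be told apart.

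Vip, the peptide of interneurons that inhibit other interneurons, was lower at 3 h only in the fit with the block, by 0.72 ± 0.20 on the log2 scale (edgeR, adjusted p = 0.0438). It had 5 and 326 counts in untreated libraries, 4 and 253 at 0.5 h, and 4 and 140 at 3 h. The replicate 1 libraries thus held almost no Vip RNA, and the difference rests on replicate number 2, where the 3 h level was 0.588 times the untreated one. With the block, limma-voom (adjusted p = 0.139) and DESeq2 (adjusted p = 0.278) did not call it. In edgeR with the block the call was also lost when either untreated library, either 0.5 h library or KCl 3 h replicate 2 was left out (adjusted p from 0.101 to 0.881).

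Penk and Crh had higher values in both 3 h libraries than in both untreated ones but were not called in edgeR on all 6 libraries. Some edgeR fits with the block and 1 library left out did call them, with 1 residual degree of freedom. Penk, the precursor of enkephalins, read 0.85 and 1.79 cRPKM untreated, 0.97 and 2.32 at 0.5 h, and 2.31 and 2.52 at 3 h. Replicate 1 moved more than replicate 2, with ratios to untreated of 2.88 and 1.43. The log2 difference was 0.93 ± 0.50 (adjusted p = 0.248), and 1.04 ± 0.31 with the block (adjusted p = 0.0519). An antisense gene overlaps Penk, and the library kit does not mark the strand, so reads from any stretch that both transcribe cannot be told apart. Whether their exons overlap was not looked at.

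Crh encodes the hypothalamic stress peptide, which is also made by hippocampal interneurons and Cajal-Retzius cells. It had 8 and 53 counts untreated, 12 and 45 at 0.5 h, and 127 and 60 at 3 h. The ratio of 3 h to untreated was 17.1 in replicate number 1 and 1.55 in number 2. Replicate 1 held less Crh than replicate 2 in the untreated and 0.5 h groups and more at 3 h. The log2 difference was 1.81 ± 0.97 (edgeR, adjusted p = 0.244), and 2.08 ± 0.80 with the block (adjusted p = 0.0981). DESeq2 with the block called Penk (log2 1.07, adjusted p = 0.00356) and Crh (log2 2.49, adjusted p = 0.00702). The value of Crh with the block ran from 0.69 without KCl 3 h replicate 1 to 3.77 without KCl 3 h replicate 2, and that of Penk from 0.48 to 1.59 without the same libraries.

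For the other 5 members the 3 h and untreated groups overlapped. The main edgeR fits on all 6 libraries called none of them, without or with the block. Each was called in some edgeR fit with the block and 1 library left out, with 1 residual degree of freedom. Nts was also called with the block on all 6 libraries under another tool or scaling. Npy, the peptide of several interneuron classes, read 3.34 and 8.64 cRPKM untreated and 2.80 and 6.26 at 3 h, ratios of 0.891 and 0.736 within numbers. Nts read 41.85 and 24.05 untreated and 35.21 and 19.29 at 3 h, ratios of 0.894 and 0.815 (adjusted p = 0.0616 with the block). Cck read 48.42 and 144 untreated and 51.05 and 106 at 3 h, so its ratio was above 1 in number 1 (1.12) and below 1 in number 2 (0.745). Tac1 behaved likewise, at 1.30 and 0.926. Pdyn, the precursor of dynorphins, had ratios of 1.30 and 1.01.

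**Figure D2:**
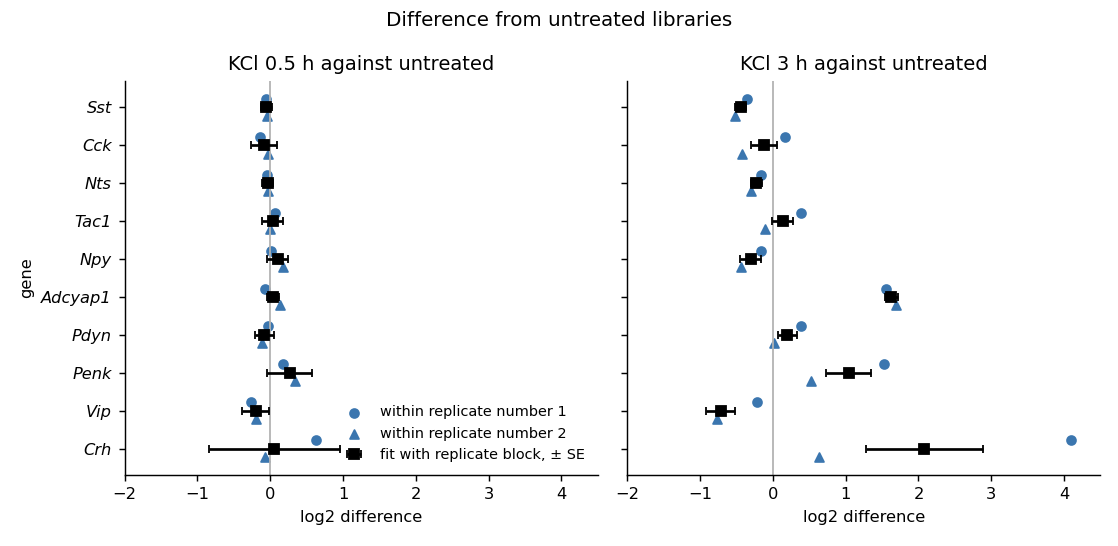
Log2 difference of each gene from the untreated libraries after 0.5 h (left) and 3 h (right) of KCl; blue points are the differences within replicate number 1 (circles) and 2 (triangles), black squares the edgeR fit with the replicate block ± SE. At 0.5 h the squares lie between −0.20 and 0.27, and at 3 h Adcyap1 stands at 1.63 with both blue points beside it, while the blue points of Crh lie at 4.09 and 0.63.

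The direct comparison of 3 h with 0.5 h shares the 3 h libraries with the one above. Without the block edgeR called 0 of 10 members, against 11.3% of all genes (1 at an unadjusted p under 0.05, Adcyap1; DESeq2 called Adcyap1 and limma-voom 0). With the block 2 of 10 were called, against 31.2% of all genes. Adcyap1 rose between the times by 1.59 ± 0.087 on the log2 scale (adjusted p = 0.00302), with ratios of 3.11 and 2.92 within numbers. Sst fell by 0.39 ± 0.077 (adjusted p = 0.0216), with ratios of 0.815 and 0.715, and was not called without 0.5 h replicate 1 (adjusted p = 0.146) or 2 (adjusted p = 0.323).

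Replicate number separated the libraries for most of these genes. In the fit with the block, 7 of 10 members were called higher in replicate number 2 than in number 1, against 6.94% of all genes tested, and 1 of 10 lower, against 5.03%. This term was added after the values were seen. Vip, Cck, Npy, Adcyap1, Pdyn, Tac1 and Sst were higher in number 2 and Nts was lower. Vip had 5, 4 and 4 counts in the number 1 libraries of the untreated, 0.5 h and 3 h groups and 326, 253 and 140 in number 2, a log2 difference of 5.92 ± 0.20 (edgeR, adjusted p = 0.00132). With so few counts in number 1, no ratio per group is given. Cck was 2.98, 3.25 and 2.07 times higher (log2 1.39 ± 0.15, adjusted p = 0.0106) and Npy 2.59, 2.95 and 2.24 times (log2 1.32 ± 0.12, adjusted p = 0.00852). Nts went the other way, being 1.74, 1.71 and 1.83 times higher in number 1 (log2 −0.86 ± 0.060, adjusted p = 0.00565). Adcyap1 differed by 0.90 ± 0.070, Pdyn by 0.83 ± 0.11, Tac1 by 0.73 ± 0.12 and Sst by 0.49 ± 0.063 on the log2 scale (adjusted p from 0.00688 to 0.0252). Penk (0.75 ± 0.25, adjusted p = 0.121) and Crh (0.86 ± 0.68, adjusted p = 0.444) were not called. The labels do not say what the numbers stand for.

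Markers of several cell types differed between the same libraries, where 6.94% of all genes tested were called higher in number 2 and 5.03% lower. Of 6 choroid plexus markers 5 were called higher in number 2 and 0 lower, and their sum was 2.15, 2.28 and 2.18 cRPKM in the number 1 libraries against 141, 195 and 236 in number 2. The transthyretin gene Ttr, named after its values were seen, read 0.04 to 0.13 in number 1 and 136 to 229 in number 2. Of 6 Cajal-Retzius markers 0 were called higher and 5 lower in number 2 (median log2 difference −1.87), with sums of 42.3, 40.9 and 36.7 in number 1 and 33.4, 28.3 and 17.5 in number 2. Of 19 interneuron markers 6 were higher and 0 lower in number 2, while their sums were 419, 412 and 341 in number 1 and 615, 577 and 414 in number 2. Of 7 fibroblast markers 5 were higher and 1 lower in number 2, yet their sum was lower there, at 32.5, 33.2 and 29.6 against 43.5, 44.1 and 44.0 in number 1, and Dcn, the most abundant of them and named after its values were seen, was the one called lower. Of 10 oligodendrocyte lineage markers 5 were higher and 2 lower in number 2, and their sum was also lower there, at 219, 212 and 241 against 306, 267 and 315. The 10 astrocyte markers summed to 1070, 1080 and 1110 in number 1 and to 1570, 1710 and 2230 in number 2, with 3 called higher and 0 lower. The part of these cells in the differences of the members was not tested.

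**Figure D3:**
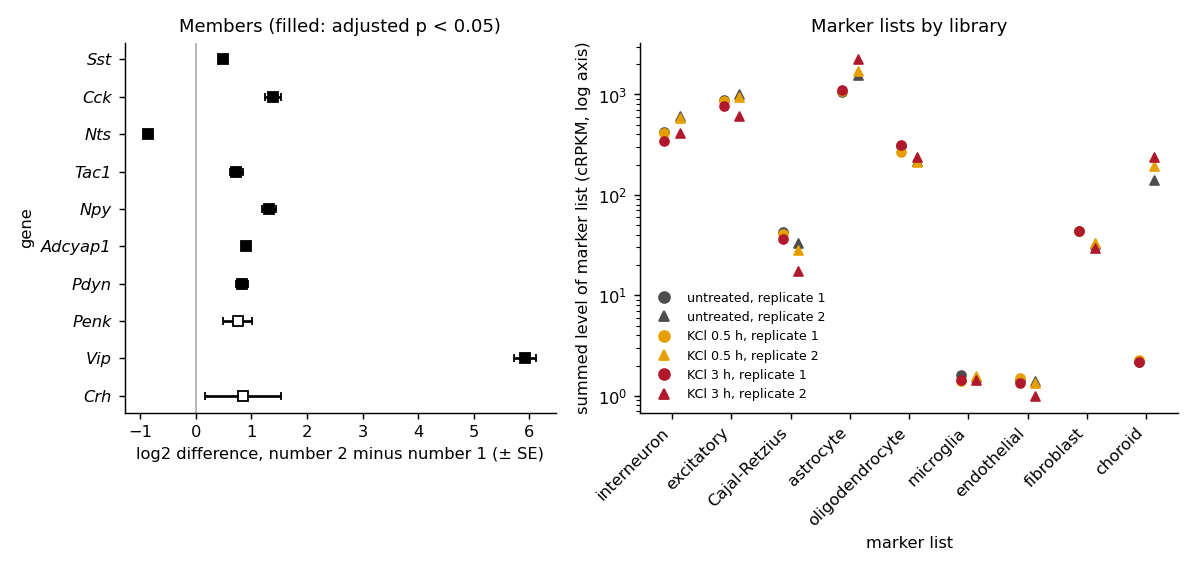
Left, log2 difference of each gene between replicate number 2 and number 1 in the edgeR fit with the block (± SE; filled squares have an adjusted p under 0.05). Right, summed level of each list of cell type markers (cRPKM, log axis) in the 6 libraries; the choroid plexus list stands near 2 in number 1 and between 141 and 236 in number 2.

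Receptors for the 10 peptides and the CRH binding protein were looked at as a list of 26 genes, 25 of them tested. At 0.5 h 0 were called by edgeR without the block, where 0.0377% of all genes were called, and 0 with it, where 0.0818% were. At 3 h 1 was higher and 5 lower, where 15.6% of all genes were called (2 and 11 with the block, where 37.2% were, and 2 and 8 in DESeq2), and the median log2 difference was −0.53, against −0.02 over all genes. The one called higher was Tacr1, the substance P receptor, at 1.23 and 1.42 cRPKM untreated and 2.92 and 4.73 at 3 h. It rose by 1.58 ± 0.22 on the log2 scale (adjusted p = 0.0134). Its peptide gene Tac1 was not called.

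The somatostatin receptors moved apart from each other. Sstr4 read 9.63 and 8.83 cRPKM untreated and 3.38 and 2.51 at 3 h, and fell by 1.58 ± 0.22 on the log2 scale (adjusted p = 0.0133). Sstr1 read 13.60 and 12.28 untreated and 28.24 and 17.93 at 3 h, which was called only with the block (log2 0.86 ± 0.15, adjusted p = 0.0130). Sstr2 was not called, with ratios of 1.43 in number 1 and 0.755 in number 2. Sstr3 and the scarcely detected Sstr5 were called lower only with the block.

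Among the neuropeptide Y receptors, Npy2r fell by 1.10 ± 0.21 (adjusted p = 0.0281) and Npy5r by 1.60 ± 0.38 (adjusted p = 0.0443) on the log2 scale. Npy2r read 2.79 and 3.55 cRPKM untreated and 1.16 and 1.71 at 3 h, while Npy5r was at 0.35 or less in every library. Npy1r, at 6.03 and 7.96 untreated and 5.69 and 6.21 at 3 h, was not called. The mu opioid receptor gene Oprm1, for enkephalins, fell by 2.13 ± 0.31 (adjusted p = 0.0140), from 80 and 101 counts untreated to 18 and 16 at 3 h. The delta receptor gene Oprd1 read 1.17 and 1.97 untreated and 0.42 and 0.71 at 3 h and was called only with the block (adjusted p = 0.00308).

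The neurotensin receptor Ntsr1 read 14.10 and 14.14 cRPKM untreated and 7.96 and 7.14 at 3 h, and fell by 0.84 ± 0.11 on the log2 scale (adjusted p = 0.0106). Adcyap1r1, which encodes the PACAP receptor PAC1, was the most abundant receptor of the list at 81.61 and 82.84 cRPKM untreated, 81.80 and 82.59 at 0.5 h and 62.40 and 76.34 at 3 h. It was not called, with a log2 difference of −0.19 ± 0.11 (adjusted p = 0.263). Vipr1, which binds both VIP and PACAP, read 1.15 and 2.25 untreated and 0.61 and 0.83 at 3 h and was called lower only with the block (adjusted p = 0.00959). The same held for Crhr1 (adjusted p = 0.0404) and for Crhbp, which encodes the CRH binding protein (adjusted p = 0.00721). Without either untreated library the receptor calls of the fit without the block were lost. That setting leaves 1 untreated library, and most calls over all genes were lost in it too.

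**Figure D4:**
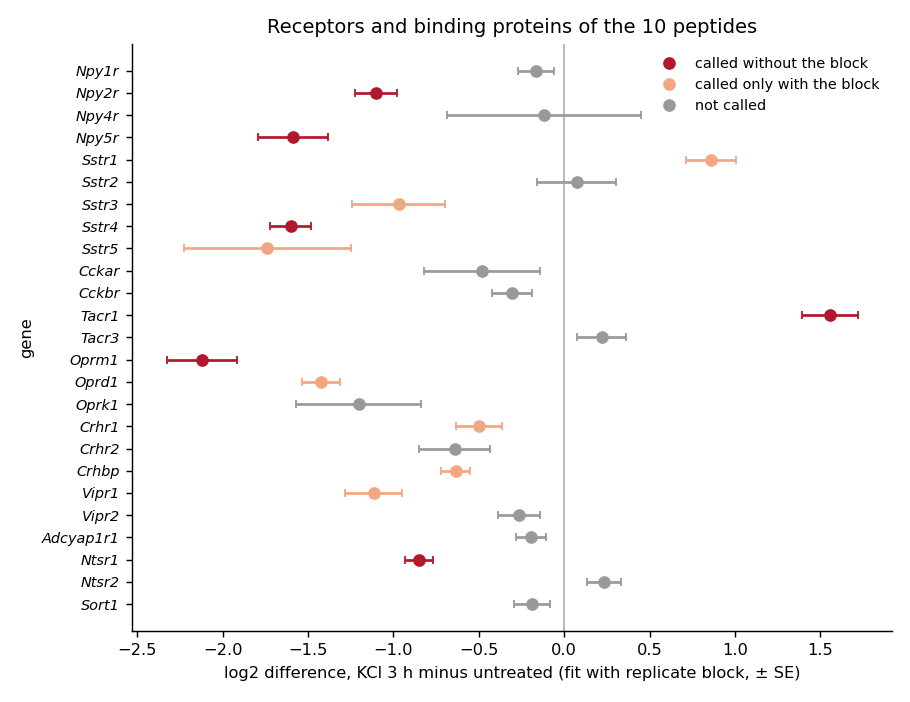
Log2 difference between KCl 3 h and untreated libraries (edgeR fit with the replicate block, ± SE) for each tested receptor gene and Crhbp; dark red points were called without the block, pale red ones only with it and grey ones in neither. Tacr1 stands at 1.56 and Sstr1 at 0.86, and Oprm1 is lowest at −2.12.

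Genes that process and package the precursors gave 3 calls higher and 0 lower among 20 tested at 3 h (5 and 1 with the block, 5 and 1 in DESeq2), with a median log2 difference of 0.01. These counts are near or below the shares of all genes called, 15.6% without the block and 37.2% with it. Scaling by library totals changed this count to 1 higher and 1 lower. Pcsk1, a prohormone convertase, read 6.83 and 11.88 cRPKM untreated, 6.79 and 11.01 at 0.5 h, and 64.97 and 47.75 at 3 h. It rose by 2.66 ± 0.36 on the log2 scale (adjusted p = 0.0129), with ratios of 10.1 and 4.08 within numbers. Scg2, the secretogranin II gene of dense core granules, read 44.50 and 80.55 untreated and 150 and 164 at 3 h, and rose by 1.38 ± 0.34 (adjusted p = 0.0463). The cathepsin L gene Ctsl rose by 0.55 ± 0.11 (adjusted p = 0.0306). Scg2 and Ctsl were each called in 2 of the 6 fits that left out 1 library. Pcsk2, the other neuronal convertase, named after its values were seen, read 37.65 and 43.60 untreated and 28.75 and 22.95 at 3 h and was called lower only with the block (adjusted p = 0.0375). Cpe, the carboxypeptidase gene, stood between 922 and 1814 cRPKM and was not called. Without either untreated library the calls of the fit without the block were lost, as were most calls over all genes.

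**Figure D5:**
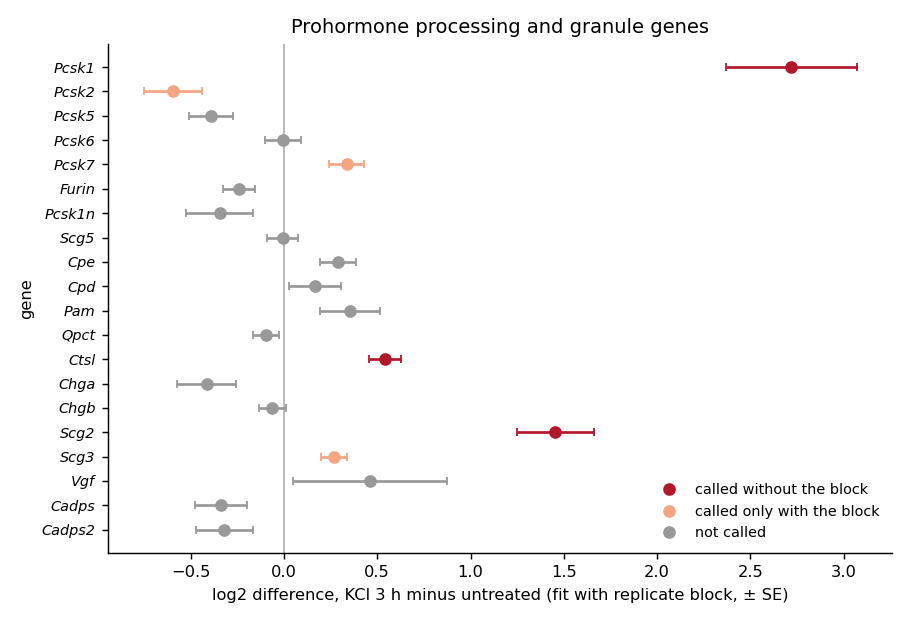
Log2 difference between KCl 3 h and untreated libraries (edgeR fit with the replicate block, ± SE) for the 20 genes of prohormone processing and granules, coloured as called without the block (dark red), only with it (pale red) or in neither fit (grey). Pcsk1 stands at 2.72 and Scg2 at 1.46, while the other 18 lie between −0.60 and 0.54.

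Enzymes that break down released peptides gave no call at 3 h among 12 tested in edgeR (3 at an unadjusted p under 0.05, and 1 higher and 2 lower with the block). The most abundant, neurolysin (Nln) and prolyl endopeptidase (Prep), had log2 differences of 0.20 ± 0.12 and −0.08 ± 0.16, and the calls are fewer than the 15.6% (37.2% with the block) of all genes. Of 50 other neuropeptide precursor genes with a value, 31 could be tested, and 3 were called higher and 0 lower at 3 h (5 and 4 with the block), below the shares of all genes called (15.6% and 37.2%). The median log2 difference of the 31 was 0.29.

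Those 3 precursors were scarce. Cartpt, which encodes the CART peptides, had 15 and 21 counts untreated, 15 and 11 at 0.5 h, and 129 and 76 at 3 h, and rose by 2.74 ± 0.34 on the log2 scale (adjusted p = 0.0105). Ucn2, which encodes urocortin 2, a CRH family peptide, had 5 and 13 counts untreated and 50 and 66 at 3 h (log2 2.98 ± 0.56, adjusted p = 0.0264), and was called in 1 of the 6 fits that left out 1 library. The oxytocin gene Oxt had 7 and 1 counts untreated and 26 and 20 at 3 h (adjusted p = 0.0455). Without any 1 of the 6 libraries Oxt was no longer called. Without either untreated library the calls of Cartpt and Ucn2 were lost as well, as were most calls over all genes.

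The CREB family, its coactivators and activity-induced transcription factors were looked at in the same libraries, since several are induced by depolarisation. Of 13 genes tested, 2 were called higher and 0 lower at 0.5 h (Fos and Nr4a1), against 0.0377% of all genes. With the block 3 were higher and 0 lower, against 0.0818%. At 3 h 8 were higher and 1 lower (Crtc1, log2 −0.62 ± 0.10), against 15.6% of all genes. With the block 10 were higher and 1 lower at 3 h, against 37.2%. At 3 h Fos rose by 5.32 ± 0.20 on the log2 scale (adjusted p = 0.00141), Nr4a1 by 4.35 ± 0.16 (adjusted p = 0.00141), Atf3 by 3.98 ± 0.22 (adjusted p = 0.00318) and Fosb by 6.59 ± 0.48 (adjusted p = 0.00461). All 4 remained called without any 1 library. Between replicate numbers 0 of the 13 were called, against 6.94% of all genes higher in number 2 and 5.03% lower.

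For the members called with the block, the genes with the most similar pattern over the 6 libraries were sought among 12147 other genes (12148 for Vip) averaging 1 cRPKM or more. By Pearson's r of the scaled log2 counts, Adcyap1 was most like Atp5c1 (r = 0.997) and Dpm1 (r = 0.997), Sst most like Rcan2 (r = 0.999) and Ankrd29 (r = 0.998), and Vip most like Bnip3 (r = 0.997) and Bcam (r = 0.997). The 6 points share the replicate numbers and the depth, and r takes no account of size. Atp5c1, a subunit gene of the mitochondrial ATP synthase, ran only from 164 to 193 cRPKM. Rcan2, a calcineurin regulator gene, read 10.75 and 18.69 untreated, 9.99 and 17.57 at 0.5 h, and 6.87 and 10.42 at 3 h.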

How the data were processed

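RNA from 6 libraries (3 groups of 2) was prepared with TriReagent and the TruSeq RNA kit v2 (an unstranded kit), per the labels' protocols. The submitters' processing notes name the mouse build mm9 and Bowtie, and give no version, annotation or counting rule. Each deposited file gives, per Ensembl identifier, an RPKM value computed by the authors (cRPKM as deposited) and a raw read count deposited without normalization. Identifiers were matched to GENCODE symbols, which named 20451 of 21553 genes (94.9%). Counts were filtered by filterByExpr (minimum count 10, leaving 15895 genes and 99.99% of counts), scaled by TMM and tested in edgeR 4.0.16 (R 4.3.3). All 6 libraries entered 1 quasi-likelihood fit, with 3 residual degrees of freedom, or 2 with the replicate block, and p-values were adjusted over all genes tested (Benjamini-Hochberg). The code was tested on simulated data. DESeq2 1.42.0, limma-voom 3.58.1, library totals, no filter, the compared groups alone and leaving out each library were the alternatives.

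The members, lists and tests were chosen with earlier results of these data known. All 10 members are named. From the other lists up to 4 genes called without the block at 3 h against untreated are named, by smallest adjusted p, and receptors stand beside their peptide. In the excitatory, fibroblast and choroid plexus marker lists these were Zbtb18, Pdgfrb and Kl, each called lower. For the peptidases, where none was called, the most abundant 2 are named. Crtc1, and Npas4 and Junb at 0.5 h, were named after the values were seen. Since no member was called without the block, sequences and similar genes are given for those called with it. Fits that kept the block under other tools or without 1 library, and the replicate number term, were added after seeing the data. The replicate differences, taken per gene, correlated over 15895 genes. The r was 0.81 (untreated and 0.5 h), 0.58 (untreated and 3 h) and 0.61 (0.5 h and 3 h). The first 2 principal components held 52.8% and 33.2% of the variance, and what they separate was not tested. The labels state no shared culture or day. Genes are not independent replicates.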

Additional observations from a re-analysis of the deposited data

How the results depend on the processing

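The count of members called stayed at 0 at 0.5 h under all alternatives. At 3 h against untreated it was 1 in DESeq2 and 3 with the replicate block, and at 3 h against 0.5 h it was 1 in DESeq2 and 2 with the replicate block, and 0 under all others. With the replicate block kept, it ran from 2 to 8 (3 h against untreated) and from 1 to 7 (3 h against 0.5 h) as each library was left out, the highest without KCl 3 h replicate 1 or 2, and was 4 in DESeq2 with the block at 3 h against 0.5 h. In the fits with the block that left out a KCl 3 h library, most of all genes tested were called too, in both 3 h comparisons. The highest counts are therefore not particular to the members. Fits with the block and 1 library left out have 1 residual degree of freedom, so their p-values are of little weight.

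Without the block, leaving out 1 library changed the sign of many log2 differences, none of them called. At 0.5 h against untreated the ranges were −0.81 to 0.96 for Npy, −0.36 to 0.24 for Sst, −1.12 to 0.91 for Cck, −0.46 to 0.56 for Tac1, −0.45 to 0.91 for Penk, −0.61 to 0.48 for Pdyn, −1.34 to 2.00 for Crh, −5.34 to 4.87 for Vip, −0.52 to 0.51 for Adcyap1 and −0.50 to 0.43 for Nts. At 3 h against untreated they were −0.98 to 0.46 for Npy, −0.83 to 0.72 for Cck, −0.31 to 0.61 for Tac1, −0.26 to 0.72 for Pdyn, −5.27 to 4.30 for Vip and −0.76 to 0.26 for Nts. At 3 h against 0.5 h they were −1.11 to 0.47 for Npy, −0.78 to 0.88 for Cck, −0.30 to 0.55 for Tac1, −0.12 to 0.77 for Pdyn, −5.07 to 4.59 for Vip and −0.73 to 0.31 for Nts. With the block kept, signs also changed at 0.5 h against untreated over the 10 fits, none called, for Npy (−0.06 to 0.24), Cck (−0.30 to 0.10), Tac1 (−0.10 to 0.18), Penk (−0.12 to 0.57), Pdyn (−0.19 to 0.04), Crh (−0.96 to 1.76) and Adcyap1 (−0.05 to 0.12). At 3 h they changed with the block for Cck (−0.45 to 0.20 against untreated, −0.37 to 0.29 against 0.5 h), Tac1 (−0.10 to 0.37 and −0.13 to 0.34) and Vip (−0.57 to 0.03 against 0.5 h). Leaving out a library unbalances the replicate numbers, and the members differ between numbers. Adcyap1, Penk and Crh kept their direction at 3 h in each fit, as did Sst.

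Scaling by library totals turned Tac1 at 3 h against 0.5 h to −0.03, moved the median of all genes there from −0.03 to −0.10, and changed the split of calls over all genes at 3 h against untreated from 1384 higher and 1088 lower to 1115 and 1340. Without untreated replicate 1 or 2, most calls over all genes at 3 h against untreated were lost in the fit without the block, while Fos, Nr4a1, Atf3 and Fosb kept theirs. These settings leave 1 untreated library. Counting error is small for Sst, Cck and Nts, while Crh and Vip in replicate 1 rest on 4 to 12 counts outside the 3 h Crh library.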
